A study of Mus musculus with 12 samples.

Results

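Glutathione S-transferases were followed across 12 mouse livers through 10 genes: the alpha class genes Gsta2, Gsta3 and Gsta4, the mu class genes Gstm1, Gstm2, Gstm3, Gstm4 and Gstm6, the pi class gene Gstp1 and the theta class gene Gstt1. A gene was taken up when a probe of the array was annotated to one of its RefSeq transcripts. All 10 genes were found, on 13 probes, among 26396 genes or unnamed transcripts that were bright enough to test. Gsta3, Gstm1 and Gstm6 had 2 probes each, and the probe with the higher mean over the 12 arrays stood for the gene.

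Glutathione S-transferases couple the tripeptide glutathione to electrophilic drugs, carcinogens and lipid peroxidation products, which makes them soluble and ready for export. Hepatocytes carry large amounts of these enzymes, and in mice the pi class enzyme is abundant in male liver. Their genes are known targets of the oxidant-sensing factor NRF2, which binds antioxidant response elements, and of the xenobiotic receptors CAR, PXR and AhR.

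The study gave the pentapeptide IIAEK, described by the submitters as cholesterol-lowering, to male mice and read total liver RNA on one-colour Agilent arrays. The groups were IAP knockout (Akp3-/-) mice given IIAEK, IAP knockout (Akp3-/-) mice given vehicle, wild-type mice given IIAEK and wild-type mice given vehicle. Each group had 3 replicates on 3 arrays, taken here as 3 mice. IAP is intestinal alkaline phosphatase, the enzyme that the gene Akp3 encodes, and the knockout was labelled as a plain Akp3-/- genotype with no tissue-restricted deletion. Mice were 7 weeks old at the start; IIAEK was given by mouth at 600 mg per kg per day for 14 days, vehicle mice received 5 g per L carboxymethylcellulose on the same schedule, and livers were collected after a fast of 8 h. The background strain was not given in the sources used here. One label of the IIAEK mice gives 14 weeks where the titles and the design give 14 days, and 14 days was used.

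The targeted gene could not check the genotype labels. Both Akp3 probes were not well above background on any of the 12 arrays, in knockout and in wild-type liver alike. Every array had 62976 spots, none saturated, and 56.8% to 61.9% of its probes were well above background. The 13 probes of the transferase genes were well above background on all 12 arrays. Of 12 hepatocyte markers, 11 were tested and none was below background on all arrays. On the first principal component, which held 55.4% of the variance, 4 vehicle arrays stood apart at 74.1 to 88.1 (knockout vehicle 1 and 3, wild-type vehicle 2 and 3), and the other 8 lay between -57.3 and -11.3. They made up 2 of the 3 arrays in each vehicle group, and results are also given without these 4 outlying vehicle arrays. Pancreas markers were 3.31 above their 12-array mean (median of 10 tested, log2) on wild-type vehicle 1, where their summed level was 32.9 against 9.07 to 17.0 on the other 11 arrays. Replicate 1 of each group was on slide 1, and replicates 2 and 3 were on slide 2, a slide being also a scan day.

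Promoters of 4 genes are shown because their levels formed clear patterns across the arrays. Gstp1 and Gsta3 were low on the 4 outlying vehicle arrays, and the mu class genes Gstm3 and Gstm4 had nearly the same profile. Gstm6, whose promoter is not shown, was also low on those 4 arrays by its brighter probe. The sequences are the 250 bases upstream of a RefSeq start in GRCm38.p6, at chr19:4037913-4038162 on the minus strand for Gstp1, chr1:21240335-21240584 on the plus strand for Gsta3, chr3:107969175-107969424 on the minus strand for Gstm3 and chr3:108044857-108045106 on the minus strand for Gstm4. They are written 5′ to 3′, and capitals mark the matches described after them.
Gstp1: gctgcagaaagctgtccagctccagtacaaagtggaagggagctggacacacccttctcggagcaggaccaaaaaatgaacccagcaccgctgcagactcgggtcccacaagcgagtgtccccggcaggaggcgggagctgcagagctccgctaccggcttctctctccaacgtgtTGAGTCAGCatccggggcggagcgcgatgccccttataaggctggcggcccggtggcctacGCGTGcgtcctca
Gsta3: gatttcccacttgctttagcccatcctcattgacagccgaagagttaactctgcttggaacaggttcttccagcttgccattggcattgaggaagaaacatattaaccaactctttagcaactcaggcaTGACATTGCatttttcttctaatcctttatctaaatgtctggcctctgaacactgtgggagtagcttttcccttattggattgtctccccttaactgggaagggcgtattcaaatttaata
Gstm3: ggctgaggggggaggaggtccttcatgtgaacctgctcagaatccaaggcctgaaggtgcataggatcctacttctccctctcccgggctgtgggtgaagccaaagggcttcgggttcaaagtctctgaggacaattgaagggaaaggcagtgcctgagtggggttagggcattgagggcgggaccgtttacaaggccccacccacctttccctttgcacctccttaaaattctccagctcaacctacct
Gstm4: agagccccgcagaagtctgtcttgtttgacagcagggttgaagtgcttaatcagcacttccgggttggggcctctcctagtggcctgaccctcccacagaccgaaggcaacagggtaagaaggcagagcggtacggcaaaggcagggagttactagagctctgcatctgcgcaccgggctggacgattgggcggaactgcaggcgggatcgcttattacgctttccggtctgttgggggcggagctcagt

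Motifs were searched on both strands of 300-base windows, which run from 250 bases before a start to 50 bases after it. The table held windows for 9 of the 10 genes. The antioxidant response element core TGACNNNGC was found for 1 of them, Gsta3, and in 12.4% of all 32851 mouse windows. The AhR core GCGTG was found for Gsta2, Gstm1 and Gstp1, and in 32.4% of all windows. A variant, TGANTCAGC, added after the sequences had been seen, was found for Gstp1, 74 bases upstream of the start, and in 1.19% of all windows. No match of these letters was found for Gstm3 or Gstm4. These matches are descriptions of sequence and say nothing of binding in these livers.

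Levels below are log2 values of an array's processed signal over that array's 75th percentile, so that 0 is the 75th percentile. Levels of different genes come from different probes and are not set against each other. Values are given for mice 1, 2 and 3 of a group in that order.

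Gstp1, the pi class gene, varied most among the arrays. Its levels were 7.08, 6.90 and 6.96 in knockout mice given IIAEK, 5.14, 7.23 and 5.16 in knockout mice given vehicle, 7.23, 7.11 and 5.15 in wild-type mice given IIAEK, and 7.29, 4.43 and 5.10 in wild-type mice given vehicle. It was high, between 6.90 and 7.29, on 7 arrays and low, between 4.43 and 5.16, on 5. The low arrays were the 4 outlying vehicle arrays and mouse 3 of the wild-type IIAEK group. Only the knockout IIAEK group had no low mouse. The SD over the 12 arrays was 1.11, against a median of 0.32 over all genes tested. The annotated Gstp2 probe, for a gene nearly identical in sequence, was also low on these 5 arrays, at 7.84 to 8.18, and lay at 8.64 to 9.43 on the other 7. Probe sequences were not used here, so signal shared between the copies could not be checked.

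Gsta3, an alpha class gene whose mouse enzyme is known for detoxifying the epoxide of aflatoxin B1, was lowest on arrays of the vehicle groups. It stood at 8.87, 8.52 and 8.76 in knockout IIAEK livers and at 7.32, 8.51 and 7.49 in knockout vehicle livers. In wild-type livers it stood at 9.25, 8.82 and 8.86 under IIAEK and at 8.92, 8.20 and 7.49 under vehicle. Every knockout IIAEK mouse was above every knockout vehicle mouse, the closest pair being 8.52 and 8.51. In wild type the groups overlapped through vehicle mouse 1. On the 4 outlying vehicle arrays Gsta3 was 7.32 to 8.20, and on the other 8 it was 8.51 to 9.25. Its second probe followed the first with r = 0.997 over the 12 arrays.

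Gsta2, another alpha class gene, was 5.47, 5.59 and 5.07 in knockout IIAEK livers, 5.72, 5.19 and 6.0 in knockout vehicle livers, 6.26, 5.45 and 5.10 in wild-type IIAEK livers, and 4.94, 6.74 and 6.10 in wild-type vehicle livers. Wild-type vehicle mice held both the lowest and the highest level, and all groups overlapped. Gsta4, whose enzyme conjugates 4-hydroxynonenal, a product of lipid peroxidation, was 2.54, 2.39 and 1.76 in knockout IIAEK livers, 2.62, 2.36 and 2.88 in knockout vehicle livers, 3.22, 2.52 and 2.78 in wild-type IIAEK livers, and 1.74, 3.09 and 2.73 in wild-type vehicle livers. The treatments overlapped in both genotypes, and wild-type vehicle mouse 1 was the lowest of the 12.

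**Figure D1:**
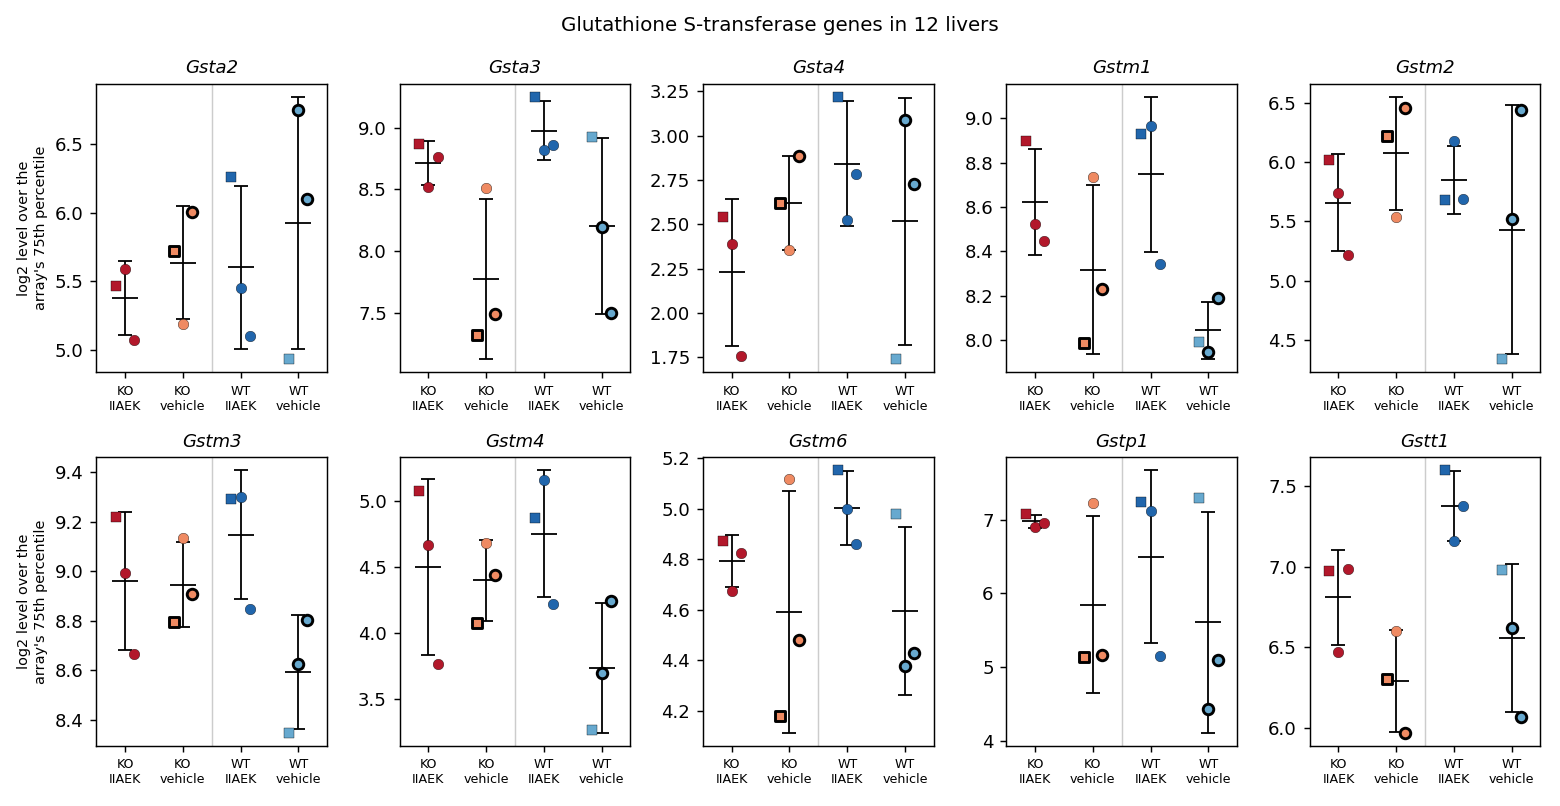
Level of each of the 10 genes (log2 of the signal over the array's 75th percentile, vertical axis with its own scale per gene) in knockout IIAEK, knockout vehicle, wild-type IIAEK and wild-type vehicle livers. Points are mice (squares on slide 1, circles on slide 2, thick outlines for the 4 outlying vehicle arrays), the long bar is the mean and the whiskers are 1 SD (n = 3); Gstp1 fell into a high set of 7 arrays and a low set of 5.

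The 5 mu class genes lie next to each other on chromosome 3. Gstm1, which encodes a major mu class enzyme of mouse liver, was 8.90, 8.52 and 8.45 in knockout IIAEK livers, 7.99, 8.73 and 8.23 in knockout vehicle livers, 8.93, 8.97 and 8.34 in wild-type IIAEK livers, and 7.99, 7.95 and 8.19 in wild-type vehicle livers. Each wild-type IIAEK mouse was above each wild-type vehicle mouse, and the knockout groups overlapped. Gstm3 was 9.22, 8.99 and 8.67 in knockout IIAEK livers, 8.80, 9.13 and 8.91 in knockout vehicle livers, 9.29, 9.30 and 8.85 in wild-type IIAEK livers, and 8.35, 8.63 and 8.80 in wild-type vehicle livers. Here too the wild-type groups were separate, by the narrow gap between 8.85 and 8.80.

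Gstm4 was 5.07, 4.66 and 3.77 in knockout IIAEK livers, 4.07, 4.69 and 4.44 in knockout vehicle livers, 4.87, 5.16 and 4.22 in wild-type IIAEK livers, and 3.26, 3.70 and 4.24 in wild-type vehicle livers. Its wild-type groups overlapped only through IIAEK mouse 3 at 4.22 and vehicle mouse 3 at 4.24. Gstm2 was 6.02, 5.74 and 5.22 in knockout IIAEK livers, 6.22, 5.54 and 6.46 in knockout vehicle livers, 5.68, 6.17 and 5.69 in wild-type IIAEK livers, and 4.34, 5.52 and 6.43 in wild-type vehicle livers. The wild-type vehicle mice held the lowest level of the 12 and nearly the highest, and the treatments overlapped in both genotypes.

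Gstm6 was read by probes that disagreed. The brighter probe gave 4.87, 4.68 and 4.83 in knockout IIAEK livers, 4.18, 5.12 and 4.48 in knockout vehicle livers, 5.15, 5.00 and 4.86 in wild-type IIAEK livers, and 4.98, 4.38 and 4.43 in wild-type vehicle livers. The other gave 5.14, 4.76 and 4.03 in knockout IIAEK livers, 4.13, 4.87 and 4.44 in knockout vehicle livers, 5.05, 5.39 and 4.46 in wild-type IIAEK livers, and 3.49, 3.80 and 4.30 in wild-type vehicle livers. Their r over the 12 arrays was 0.463. On the 4 outlying vehicle arrays the brighter probe gave 4.18 to 4.48, and on the other 8 it gave 4.68 to 5.15. The other probe did not split this way. The other probe ran closer to Gstm4, with r = 0.988, and to Gstm3, with r = 0.982, than to its own partner. Mu class transcripts are similar in sequence, and whether this probe also read other mu class transcripts was not tested.

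Gstt1, the theta class gene, whose enzyme acts on small halogenated molecules such as dichloromethane, was 6.97, 6.47 and 6.99 in knockout IIAEK livers, 6.30, 6.60 and 5.97 in knockout vehicle livers, 7.59, 7.16 and 7.37 in wild-type IIAEK livers, and 6.98, 6.62 and 6.07 in wild-type vehicle livers. All 3 wild-type IIAEK mice were above the other 9 mice. In the order of group means, wild-type IIAEK came first at 7.38 ± 0.22, followed by knockout IIAEK at 6.81 ± 0.29, wild-type vehicle at 6.56 ± 0.46 and knockout vehicle at 6.29 ± 0.32 (SD, n = 3 each). The last 3 groups overlapped one another in part.

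Across the 12 arrays the 10 genes did not move as one. Gstm3 and Gstm4 had r = 0.981, Gsta3 and Gstt1 had r = 0.908, and the brighter Gstm6 probe had r = 0.876 with Gsta3 and r = 0.822 with Gstp1. Gsta2 and Gsta4 formed a pair with r = 0.80, while Gsta2 had r = -0.399 with Gsta3 and r = -0.555 with Gstp1. These are descriptions over arrays that share the split of the vehicle groups. Signal shared between the probes of mu class genes, Gstm3 and Gstm4 among them, could not be checked. The mean profile of the 10 genes, each centred on its own mean, was closest to Gstm1 (r = 0.956) and farthest from Gsta2 (r = 0.002). Outside the family, genes among the 5 with the most similar profile were the transcript 1700109H08Rik (r = 0.892), Galk1 (0.888), the galactokinase gene, Id3 (0.873), an inhibitor of helix-loop-helix factors, and Elk4 (0.862), an ETS factor.

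**Figure D2:**
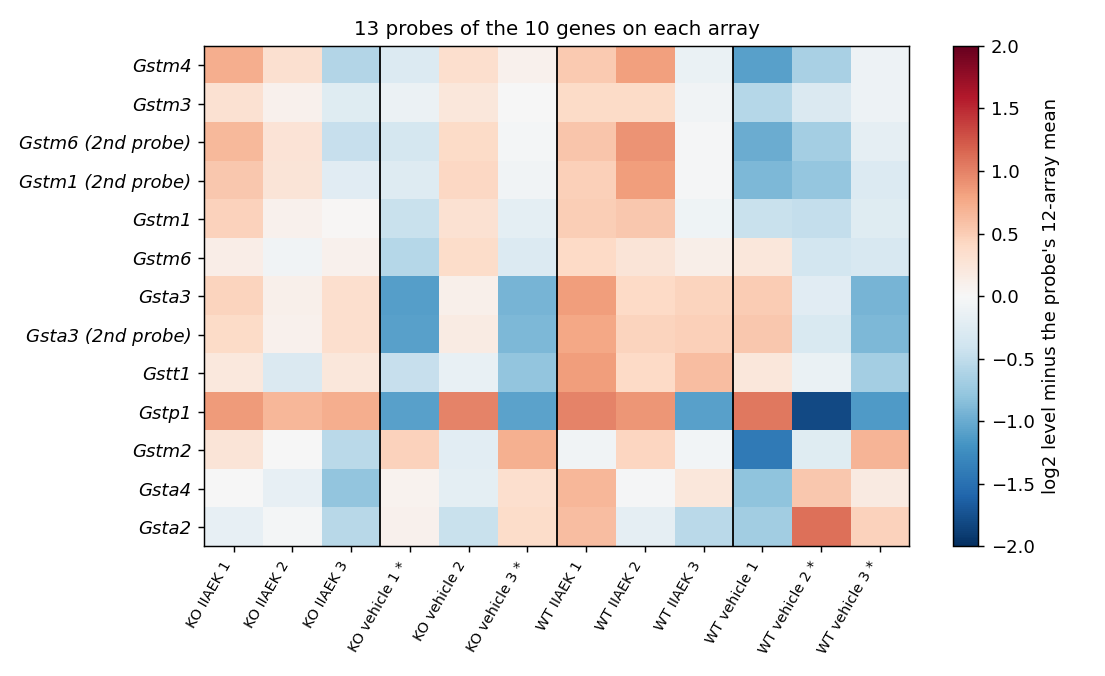
Level of the 13 probes on each of the 12 arrays, as log2 difference from the probe's own 12-array mean (colour scale, red high and blue low). Columns are arrays by group, stars mark the 4 outlying vehicle arrays, and rows place similar profiles together. Gsta3, Gstp1 and the brighter Gstm6 probe were low on starred arrays, while Gsta2 and Gsta4 were not.

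Markers of several liver cell types moved with the same arrays. Hepatocyte markers (11 tested) summed to 3251 to 3988 on the 4 outlying vehicle arrays and to 4051 to 6104 on the other 8. Their median level, as log2 from the 12-array mean, overlapped, at -0.406 to -0.077 against -0.122 to 0.523. Pericentral hepatocytes, which surround the central vein, are known to carry much of the liver's drug metabolism. The summed level of 9 pericentral markers, in multiples of the array's 75th percentile, was 734 to 1026 in knockout IIAEK livers and 386 to 926.7 in knockout vehicle livers. It was 916.7 to 1004 in wild-type IIAEK livers and 323.6 to 1279 in wild-type vehicle livers. All 9 markers were tested and none was below background throughout, and the 4 outlying vehicle arrays had the lowest sums, at 323.6 to 401.4. Markers of periportal hepatocytes, at the other end of the lobule, did not split this way, with sums of 543.5 to 938 on the 4 arrays and 616.6 to 1032 on the other 8. Markers of cholangiocytes, Kupffer cells and stellate cells were higher on the 4 outlying arrays. Cholangiocyte markers (8 tested) summed to 30.3 to 63.1 there and to 9.76 to 13.1 on the other 8. Kupffer cell markers (10 of 10 tested) summed to 382.2 to 483.9 against 127.1 to 277.3, and stellate cell markers (8 of 8) to 234.1 to 322.3 against 106.8 to 179.8. The sum of liver endothelial cell markers (8 of 8 tested) was lower on the 4 arrays, at 63.0 to 73.9 against 82.8 to 93.6. Their median level, as log2 from the 12-array mean, overlapped, at -0.269 to 0.118 against -0.092 to 0.198. Red blood cell markers (6 tested) overlapped, at 900.2 to 1079 against 286.6 to 1351. In bulk liver, fewer cells of a type and less RNA per cell cannot be told apart. The part of cell makeup in the transferase levels was not tested.

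IIAEK in wild-type mice was compared first with vehicle. Of the 10 genes, 9 had a higher mean under IIAEK and Gsta2 had a lower one. The largest differences were 1.02 ± 0.37 for Gstm4, a 2.02-fold ratio, 0.89 ± 0.80 for Gstp1, and 0.82 ± 0.26 for Gstt1, a 1.76-fold ratio (log2 change ± SE, n = 3 per group). Gsta3 differed by 0.77 ± 0.37, Gstm1 by 0.70 ± 0.23 and Gstm3 by 0.55 ± 0.20, while Gstm2, Gstm6 and Gsta4 differed by 0.42 ± 0.46, 0.41 ± 0.24 and 0.32 ± 0.34, and Gsta2 by -0.32 ± 0.44. The median over the 10 genes was 0.63, against 0.05 over all genes tested.

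None of the 10 genes passed the test in this comparison, limma's moderated test with Benjamini-Hochberg adjustment over all 26396 genes at 0.05. Over all genes 1 passed, which is 0.00379%. Without adjustment, Gstt1, Gstm1, Gstm3 and Gstm4 were under 0.05, all higher under IIAEK, as were 6.02% of all genes, and no member was under it with IIAEK lower, as 6.63% of all genes were. Each of these 4 had an adjusted p of 0.393 by limma. Groups that did not overlap, with IIAEK higher, were seen for 3 members, Gstm1, Gstm3 and Gstt1, and for 7.25% of all genes. The reverse was seen for no member and for 5.7% of all genes. Intervals at 95% ran over 0.25 to 1.39 for Gstt1, 0.19 to 1.22 for Gstm1 and -0.87 to 2.65 for Gstp1. The second probe of Gstm6 gave 1.10 and that of Gstm1 gave 1.08, both larger than the probe used.

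The wild-type values depended on which vehicle mice were counted. Without the 4 outlying arrays, only wild-type vehicle 1 remained in that group, the array with the pancreas markers, and Gstp1 changed direction to -0.79. On that basis Gsta3 differed by 0.05 and Gstt1 by 0.40, while Gstm2 differed by 1.51, Gstm4 by 1.49 and Gsta4 by 1.10. Without wild-type vehicle 1 instead, 3940 of 26396 genes passed. Gstt1 was then the 1 member that passed, at 1.03 with an adjusted p of 0.0334 by limma. Under that setting Gsta3 differed by 1.13, Gstp1 by 1.73 and Gstm4 by 0.78, and Gsta4 and Gstm2 had small negative values of -0.06 and -0.13. Small intestine markers (7 of 11 tested) were also uneven in this group, with a median of 2.57 above their 12-array mean on wild-type vehicle 2 and of 0.89 and 1.14 on vehicle 1 and 3. Their summed level was 154.8, 299.9 and 307.9 on wild-type vehicle 1, 2 and 3, and 184 to 415.2 in the other groups. The part of either tissue's RNA in these results was not tested.

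Within slide 1, which holds 1 mouse per group, the wild-type IIAEK mouse was above its vehicle mouse for 9 of the 10 genes, by up to 1.61 for Gstm4, and Gstp1 differed by -0.06. Within slide 2, with 2 mice per group, 7 of the 10 genes were higher, Gstp1 by 1.36 and Gstm4 by 0.72, and Gsta2 differed by -1.15. The medians over the 10 genes were 0.94 on slide 1 and 0.56 on slide 2.

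IIAEK in knockout mice was compared with vehicle in the same way. Gstp1 differed by 1.13 ± 0.80, Gsta3 by 0.94 ± 0.37, a 1.92-fold ratio, and Gstt1 by 0.52 ± 0.26 (log2 change ± SE, n = 3 per group). Gstm1 differed by 0.31 ± 0.23, Gstm6 by 0.20 ± 0.24, Gstm4 by 0.10 ± 0.37 and Gstm3 by 0.01 ± 0.20, and Gstm3 changed sign to -0.01 with normexp background correction and to -0.27 with quantile normalization. Gsta2, Gsta4 and Gstm2 differed by -0.26 ± 0.44, -0.39 ± 0.34 and -0.41 ± 0.46. The median was 0.15, against 0.04 over all genes.

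No member passed in knockout mice, and 0.0% of all genes did. At an unadjusted p under 0.05 there were 1660 genes. Among the members only Gsta3 was under it, with IIAEK higher, as were 3.63% of all genes, and 2.66% of all genes were under it with IIAEK lower. Its adjusted p by limma was 0.664. Gsta3 was also the only member whose knockout groups did not overlap, against 8.77% of all genes with IIAEK higher and 6.25% with IIAEK lower. Without the 4 outlying arrays, which left knockout vehicle 2 alone in its group, Gsta3 differed by 0.20 and Gstp1 by -0.25. Within slide 1 Gsta3 differed by 1.55 and Gstp1 by 1.93, and within slide 2 by 0.64 and 0.73. The medians over the 10 genes were 0.68 on slide 1 and -0.12 on slide 2.

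**Figure D3:**
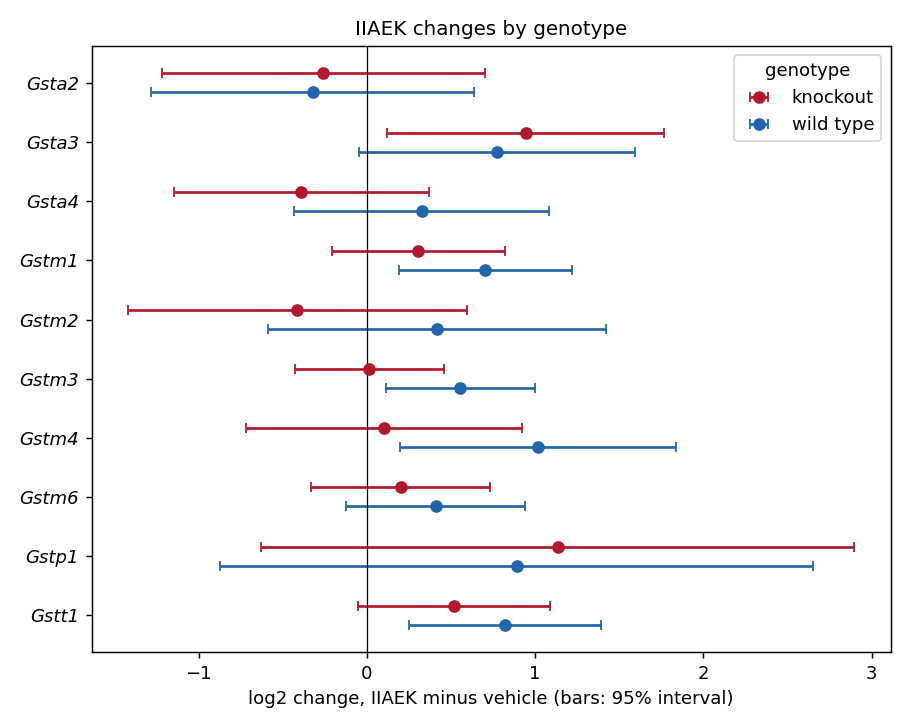
Log2 change with IIAEK (horizontal axis, IIAEK minus vehicle) for each gene in knockout and in wild-type mice; points are limma estimates from 3 mice per group and bars are 95% intervals. In wild type the intervals of Gstm1, Gstm3, Gstm4 and Gstt1 lay above 0, in knockout that of Gsta3, and no gene passed after adjustment.

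Whether the knockout altered the response was asked with the difference between the IIAEK effects, knockout minus wild type. All 5 mu class genes had a lower estimated IIAEK effect in knockout mice, and signal shared between their probes was not tested. The differences were -0.91 ± 0.53 for Gstm4, -0.83 ± 0.64 for Gstm2, -0.54 ± 0.28 for Gstm3, -0.40 ± 0.33 for Gstm1 and -0.21 ± 0.34 for Gstm6. Among the alpha class genes, Gsta4 had -0.71 ± 0.48, Gsta3 0.17 ± 0.53 and Gsta2 0.06 ± 0.62 (± SE). Without wild-type vehicle 1, Gstm2 had -0.29, Gsta4 -0.33 and Gsta3 -0.19.

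Gstt1 had a difference of -0.30 ± 0.37 and Gstp1 one of 0.24 ± 1.13. No member passed, nor did any gene (0.0%), and 413 genes were under 0.05 without adjustment, none of them a member. The adjusted p by limma was 1 for all 10. The 95% interval for Gstm3 ran over -1.17 to 0.08 and that for Gstp1 over -2.25 to 2.74, so sizeable differences in either direction were not measurable for Gstp1 with 3 mice per group. The median difference was -0.35, against 0.01 over all genes.

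Averaged over the genotypes, the IIAEK effect was 0.86 ± 0.26 for Gsta3, 0.67 ± 0.18 for Gstt1 and 0.50 ± 0.16 for Gstm1 (log2 ± SE, 6 mice per treatment). None of the 10 passed, with an adjusted p of 0.181 by limma for these 3, and 0.0% of all genes passed. Without adjustment 6031 genes were under 0.05, these 3 among them, and 11.8% of all genes were so with IIAEK higher. Without wild-type vehicle 1, 6564 of all 26396 genes passed, and Gsta3 and Gstt1 were 2 of them. Without knockout vehicle 2, 2606 of all 26396 genes passed, Gsta3, Gstm1 and Gstt1 among them. Each of these mice was the 1 vehicle mouse of its genotype outside the outlying set. Without the 4 outlying arrays, none of the 10 passed.

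**Figure D4:**
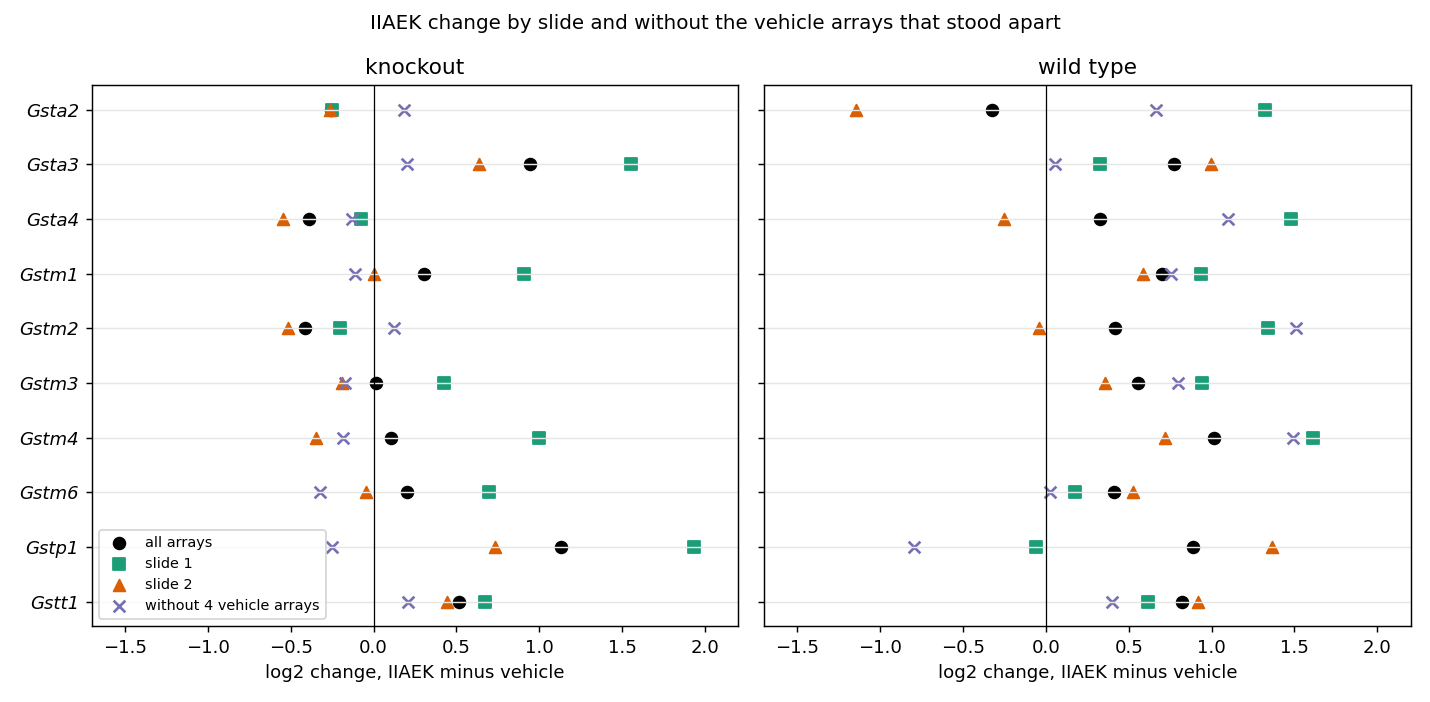
Log2 change with IIAEK (horizontal axis) for each gene in knockout mice (left) and wild-type mice (right), over all arrays, within slide 1 (1 mouse per group), within slide 2 (2 mice per group) and without the 4 outlying vehicle arrays. Gstp1 was at 1.13 in knockout and 0.89 in wild type over all arrays, and at -0.25 and -0.79 without those arrays.

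The genotype alone was compared under each treatment. Under vehicle, knockout livers differed from wild-type livers by 0.66 ± 0.37 in Gstm4, 0.64 ± 0.46 in Gstm2 and 0.35 ± 0.20 in Gstm3 (log2 ± SE, n = 3 per group), and Gsta3 differed by -0.43 ± 0.37. Without wild-type vehicle 1 these values were 0.43 for Gstm4, 0.10 for Gstm2, 0.23 for Gstm3 and -0.07 for Gsta3. No member passed, against 0.00379% of all genes. Without adjustment none was under 0.05 either, against 2.83% of all genes higher and 3.79% lower in knockout livers. No member's groups were separate, against 3.15% of all genes with knockout higher and 5.29% with knockout lower. Gstm6 differed by -0.003 and changed sign under normexp and quantile normalization. The median was 0.17, against -0.05 over all genes.

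Under IIAEK, 9 of the 10 genes had a lower mean in knockout livers, and Gstp1 had a higher one by 0.48 ± 0.80. Gsta4 differed by -0.61 ± 0.34 and Gstt1 by -0.57 ± 0.26. Not one of the 10 passed, against 0.00758% of all genes. Without adjustment none was under 0.05, against 3.3% of all genes higher and 4.53% lower in knockout livers. Gstt1, with an adjusted p of 0.628 by limma, was the 1 member whose groups did not overlap, with knockout lower, as for 14.6% of all genes. Another 13.0% of all genes were separate with knockout higher. The median was -0.22, against -0.02 over all genes. All comparisons with a group in common share its arrays.

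Other transferase genes were read beside the 10. Of 18 further members of the cytosolic, kappa and microsomal families, 16 were tested and none passed in any comparison. In wild type 11 had a higher mean under IIAEK and 5 a lower one, with a median of 0.21. The 2 with the smallest p were both lower and did not pass: Mgst2, a microsomal transferase, at -1.51 ± 0.44 and Hpgds, the sigma class prostaglandin D synthase, at -2.57 ± 0.92, each with an adjusted p of 0.393 by limma. Hpgds was well above background on 7 of the 12 arrays. Mgst2 differed by -0.69 and Hpgds by -0.08 without the 4 outlying arrays. In knockout mice the median was 0.11, and Gstt2, the theta class neighbour of Gstt1, differed by -0.68 ± 0.22 while Gstp3 differed by 0.47 ± 0.18, with an adjusted p of 0.664 by limma for both.

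The steps before and after conjugation showed no member past the test either. Glutathione synthesis, reduction and use had 16 genes tested, of which 9 were higher under IIAEK in wild type (median 0.13) and 8 in knockout (median -0.00). Gclc, the catalytic subunit of the rate-limiting enzyme of glutathione synthesis, differed by 1.35 ± 0.50 in wild type, and Glo1, glyoxalase I, by 1.01 ± 0.40. Without the 4 outlying arrays these were 0.37 and 0.22. Conjugate export and mercapturate formation had 15 tested genes, with medians of 0.03 in wild type and -0.08 in knockout. The medians of both lists lay between -0.07 and 0.04 without the 4 outlying arrays. Abcc1, an exporter of glutathione conjugates, differed by -1.32 ± 0.38 in wild type and by -1.18 ± 0.38 in knockout, with adjusted p of 0.393 and 0.664 by limma. It differed by -0.67 in wild type and by -0.32 in knockout without the 4 outlying arrays.

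Regulators of transferase genes and their other targets were read last. Of 16 regulators, 11 were higher under IIAEK in wild type (median 0.14) and 11 in knockout (median 0.05). Nr1i2, which encodes PXR, differed by 0.55 ± 0.16 in wild type. Of 16 tested NRF2 targets outside the family, 7 were higher in wild type (median -0.05) and 7 in knockout (median -0.21). Without adjustment, 5 of the 16 were under 0.05 with IIAEK higher in wild type, against 6.02% of all genes. Another 2 were under it with IIAEK lower, against 6.63%. Aox1 and Gclc had the smallest p there and differed by 1.43 ± 0.41 and 1.35 ± 0.50, with an adjusted p of 0.393 by limma. Without the 4 outlying arrays these were 0.69 and 0.37. Of 17 tested CAR and PXR targets, 14 were higher in wild type (median 0.80) and 8 in knockout (median -0.04). Over all genes, 55.22% were higher in wild type and 55.67% in knockout. Without adjustment, 6 of the 17 were under 0.05 with IIAEK higher in wild type, against 6.02% of all genes. In knockout 2 were under it with IIAEK lower, against 2.66% of all genes. Ces2a, a carboxylesterase, differed by 1.80 ± 0.37 and Cyp3a11, a main drug-metabolizing cytochrome P450, by 1.04 ± 0.25 in wild type, each with an adjusted p of 0.393 by limma. In the difference between the IIAEK effects, 16 of these 17 targets had a lower estimate in knockout, with a median of -1.24. Over all genes, 51.15% had a higher estimate. Without adjustment, 5 of the 17 were under 0.05 with knockout lower, against 0.671% of all genes. The median of these targets was -0.75 without the 4 outlying arrays, and that of the 10 transferase genes was -0.67, against -0.35 over all arrays. Only wild-type vehicle 1, the array with the pancreas markers, and knockout vehicle 2 then remained as vehicle arrays. Gsta2, Gsta4, Gstm2, Gstm3 and Gstm4 were lowest of the 12 arrays on wild-type vehicle 1. Whether the transferases followed these targets was not tested. On that basis the wild-type median turned to -0.11 for the regulators and to 0.26 for the NRF2 targets, and it was 0.58 for the CAR and PXR targets, whose knockout median was -0.59. None of these genes passed.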

How the data were processed

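Liver RNA of 12 mice was read on one-colour Agilent arrays, and, per the file headers, spot intensity was extracted with Agilent Feature Extraction 10.7.3.1 against mm9 annotation, which gave the background-corrected processed signal used here. The deposited series table holds log2 values; set against the scanner files (r = 0.99998 to 1.0 over 56605 probes) they were 75th-percentile scaled and centred on each probe's median by the authors, with column medians of -0.154 to 0.171.

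Here, control spots and non-uniform spots were left out, log2 processed signal minus each array's 75th percentile (314.6 to 529.4 in signal) was taken, and spots of a probe were averaged. Probes were named through RefSeq transcripts in a GRCm38.p6 gene table, used for names only; 32994 of 56605 probes matched 22911 symbols. A gene entered the test if some group had its brightest probe well above background in all 3 mice. The 4 groups were fitted together in limma 3.58.1 (R 4.3.3) with eBayes, two-sided, Benjamini-Hochberg over 26396 genes, threshold 0.05, for 6 comparisons. Tested on simulated data, the fit recovered the size of the changes set. The number of arrays limits the precision. The labels give 3 replicates per group without stating outright that each is a separate mouse, so p-values measure the spread between these samples. The 22 alternatives covered background correction, normalization, the filter, probes, slide, the replicate block and arrays left out. The 10 genes and the 6 context and 10 marker lists were chosen with earlier results of these data known. Every member is named for IIAEK in each genotype and for the difference between the IIAEK effects. In the other comparisons only some members are named. Of a context list, genes named with a change are among the 2 with the smallest p in that comparison. Some genes are not reported here. Sequences are from RefSeq, GRCm38.p6.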

Additional observations from a re-analysis of the deposited data

Results flagged for a closer look

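Gsta4 and Gstm2 were marked because the mice of the 2 genotypes lay on opposite sides of their vehicle mean. For Gsta4, each of the 3 knockout IIAEK mice was below the knockout vehicle mean and each of the 3 wild-type IIAEK mice was above the wild-type vehicle mean, and the IIAEK effect in knockout minus that in wild type was -0.71 ± 0.48 (log2 ± SE; adjusted p 1 by limma). For Gstm2 the same held, with a difference of -0.83 ± 0.64 (adjusted p 1 by limma). Neither difference passed. The marking rested in part on narrow margins. Gsta4 was 2.522 in wild-type IIAEK mouse 2, against a wild-type vehicle mean of 2.517. Gstm2 was 6.02 in knockout IIAEK mouse 1, against a knockout vehicle mean of 6.07. The share of all genes that meet the same rule is not given here, so the marking has no background to be set against. Without wild-type vehicle 1 the differences between the IIAEK effects were -0.33 for Gsta4 and -0.29 for Gstm2. Both genes were lowest of the 12 arrays on wild-type vehicle 1, the array with the pancreas markers, and the part of that array's makeup in the difference was not tested.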

How the results depend on the processing

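None of the 10 genes passed in any comparison over all arrays, and none passed under the 10 alternatives other than leaving out single arrays. Leaving out single arrays changed that in 2 comparisons. Genes that passed ranged over 0 to 3940 for IIAEK in wild type (members 0 to 1), 0 to 5 for IIAEK in knockout, 1 to 2 for knockout under vehicle, 0 to 4 for knockout under IIAEK, 0 to 1 for the difference and 0 to 6564 for the average (members 0 to 3). The highest wild-type and average counts came without wild-type vehicle 1. Of 26396 genes, 3940 passed there in wild type, Gstt1 among them, and 6564 in the average, Gsta3 and Gstt1 among them. Without knockout vehicle 2, 2606 of 26396 genes passed in the average, Gsta3, Gstm1 and Gstt1 among them. Over single arrays left out, Gstt1 ranged over 0.58 to 1.03 in wild type, and in the average Gsta3 over 0.68 to 1.04, Gstm1 over 0.42 to 0.61 and Gstt1 over 0.55 to 0.77.

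Directions that turned when a single array was left out had these ranges. For IIAEK in wild type they were -0.82 to 0.084 for Gsta2, -0.064 to 0.61 for Gsta4 and -0.13 to 0.92 for Gstm2. For IIAEK in knockout they were -0.12 to 0.16 for Gstm3, -0.18 to 0.47 for Gstm4 and -0.0068 to 0.46 for Gstm6. For knockout under vehicle they were -0.78 to 0.12 for Gsta2, -0.29 to 0.39 for Gsta4, -0.27 to 0.20 for Gstm6 and -0.45 to 1.08 for Gstp1, and under IIAEK -0.48 to 0.10 for Gsta2, -0.37 to 0.031 for Gstm2, -0.54 to 0.12 for Gstm4 and -0.19 to 0.85 for Gstp1. For the difference they were -0.34 to 0.56 for Gsta2, -0.19 to 0.54 for Gsta3, -0.42 to 0.054 for Gstm6 and -0.60 to 0.94 for Gstp1, and for the average -0.23 to 0.11 for Gsta4 and -0.27 to 0.25 for Gstm2.

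Without the 4 outlying vehicle arrays, 58 genes passed for knockout under vehicle, 10 for knockout under IIAEK, 1 for the difference and 1 for the average. The signs turned for Gsta2 (0.67) and Gstp1 (-0.79) in wild type and for Gsta2 (0.19), Gstm1 (-0.11), Gstm2 (0.12), Gstm3 (-0.17), Gstm4 (-0.18), Gstm6 (-0.33) and Gstp1 (-0.25) in knockout. They also turned for knockout under vehicle in Gsta2 (0.25), Gstm6 (0.14) and Gstp1 (-0.066), for the difference in Gsta2 (-0.48), and for the average in Gsta2 (0.43), Gsta4 (0.49), Gstm6 (-0.15) and Gstp1 (-0.52). On slide 2 alone, 0 genes passed in wild type, 1 in knockout, 0 for knockout under IIAEK and 4 for the average, and signs turned for Gsta4 (-0.25) and Gstm2 (-0.044) in wild type, Gstm3 (-0.19), Gstm4 (-0.35) and Gstm6 (-0.048) in knockout, Gsta3 (0.15), Gsta4 (-0.29) and Gstm6 (0.39) for knockout under vehicle, Gsta2 (0.058) under IIAEK, Gsta3 (-0.36) and Gstp1 (-0.63) for the difference and Gstm2 (-0.28) for the average. With normexp, 2 genes passed for knockout under vehicle, and Gstm3 in knockout (-0.0065), Gstm6 in knockout under vehicle (0.037) and Gstm2 in the average (-0.015) turned sign; with quantile normalization these were -0.27, 0.020 and -0.12. The mean over a gene's probes gave Gstm6 0.31 for knockout under vehicle and 0 genes for knockout under IIAEK. With no filter the counts were 2 in wild type, 1 in knockout, 0 for knockout under IIAEK and 1 for the average. Slide as a block gave 0 genes in wild type and 0 for knockout under IIAEK. The cause of these changes was not tested, beyond fewer arrays where arrays were left out.

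Replicate numbers were not treated as pairs in the main fit. Deviations of same-numbered mice had r of -0.458 to 0.167 for number 1, -0.546 to 0.231 for 2 and -0.411 to 0.645 for 3 (6 pairs each). The deviations also carry the split of the vehicle groups, so these r values cannot tell whether the mice were paired. With the replicate block, 0 genes passed in wild type and 0 for knockout under IIAEK, against 1 and 2 without it, and no member passed. The SD over the 12 arrays ran from 0.29 for Gstm3 to 1.11 for Gstp1. With 3 mice per group, no change in these genes passed over all arrays.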
